A study of Homo sapiens with 14 samples.

Results

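Interferon-stimulated genes were followed 1 by 1 in IMR90 cells, a line of human fetal lung fibroblasts that stops dividing after repeated passage. The list held 35 genes, taken by name and drawn up with earlier results of these data known, out of 54628 gene symbols in the tables of wild-type (WT) and HMGB2 knockdown (KD) cells, 59860 annotated genes in the tables of young and old cells, and 38716 symbols in the tables of cells given inflachromene (ICM). All 35 were listed in all 3 kinds of table. The groups were 2 isolates, I79 and I10, each young and old, with 1 table per group. They were joined by I79 cells given ICM (2 libraries), WT cells (2 libraries) and HMGB2 KD cells (2 libraries). The titles of the young and old cells name no treatment, while the study describes DMSO as the control of its ICM sequencing. Old cells were, by the methods of the study, cells passaged until they ceased to proliferate, ICM is a small molecule that binds HMGB1 and HMGB2, and the knockdown was made by siRNA against HMGB2, an abundant DNA-bending protein of chromatin. The labels name no isolate for the WT and HMGB2 KD cells and give no separate cultures for replicates. The p-values of HMGB2 KD against WT thus measure the spread between these libraries, which may be technical. In old against young the 2 isolates serve as the replicates, so p-values there measure how unlike the isolates are in that difference. The labels list 2 replicates for each young and old group, and whether the 1 table used for each was pooled is not stated in the sources used here. The ICM libraries were counted by transcript region, and so differ from the other tables in how they were made.

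Interferons are secreted proteins that bind receptors on the cell surface. The receptors activate JAK kinases, which phosphorylate STAT proteins such as STAT2. With IRF9 these form a complex that enters the nucleus and binds short GAAA-rich elements in the promoters of interferon-stimulated genes. The products of these genes detect viral RNA, block translation, trap virus particles or feed back on the signal. Many of them are also read as part of the inflammatory side of senescence in fibroblasts.

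Total reads assigned to genes ranged from 10971132 to 41168932 over the 10 tables, and an expression level is given either as TPM, which corrects for transcript length and depth, or as CPM, which corrects for depth alone. The summed level of 8 fibroblast markers lay between 14146 and 45471 CPM, lowest in the ICM libraries (14146 and 14403 CPM). Of 18 markers of immune, endothelial, epithelial and smooth muscle cells, 9 were under 1 CPM in every table, among them PTPRC, CD3E, ITGAM, EPCAM and CDH5. The summed level of the 7 immune markers was 24.9 to 27.2 CPM in young and 81.6 to 160 CPM in old cells, nearly all of it CD68, and that of the 2 smooth muscle markers was 38.6 to 43.3 CPM in young and 3.81 to 4.96 CPM in old cells. The 5 epithelial markers summed to 91.3 to 96.4 CPM in young and 49.6 to 50.4 CPM in old cells. Of the 4 endothelial markers, the 3 listed in all tables summed to 0.42 to 0.72 CPM in young and 2.44 to 7.32 CPM in old cells. In WT and HMGB2 KD libraries the fibroblast markers summed to 24295 to 32328 and 38005 to 45471 CPM. In the same order, the epithelial markers summed to 57.7 to 61.4 and 75.7 to 104 CPM, and these 3 endothelial markers to 7.64 to 7.76 and 5.14 to 10.2 CPM. The immune markers summed to 42.4 to 43.1 and 46.6 to 50.8 CPM, and the smooth muscle markers to 0.095 to 0.145 and 0.17 to 0.49 CPM. The part of these markers in the results was not tested. HMGB2 itself was at 27.1 and 27.3 CPM in WT libraries, against 3.22 and 3.64 CPM after knockdown (log2 fold change −2.99, SE 0.16), and it was lower in old than in young cells (log2 fold change −1.64).

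The levels of the 35 genes covered a wide range. On the TPM scale, IFITM1, which codes for a membrane protein that restricts virus entry, had the highest level of the 35 in each of the 4 young and old tables, with 153.4 TPM in young and 316.2 TPM in old cells of I79, and 125.0 TPM in young and 148.9 TPM in old cells of I10. Of the other genes, 9 were also at 10 TPM or more in all 4 tables: the signal transducers STAT2, IRF1 and IRF9, the RNA-activated kinase EIF2AK2, the dNTP hydrolase SAMHD1, the mitochondrial protein IFI6, the DNA sensor IFI16, IFI35 and TRIM22. At the other end, OAS2, OASL, HERC5, RSAD2, CMPK2 and IFI44L stayed under 1 TPM in all 4. OASL, CMPK2 and RSAD2, the gene of the antiviral enzyme viperin, were under 10 estimated counts in every one of these tables. The set was thus a mixture of genes at a high standing level and genes close to the limit of counting.

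**Figure D1:**
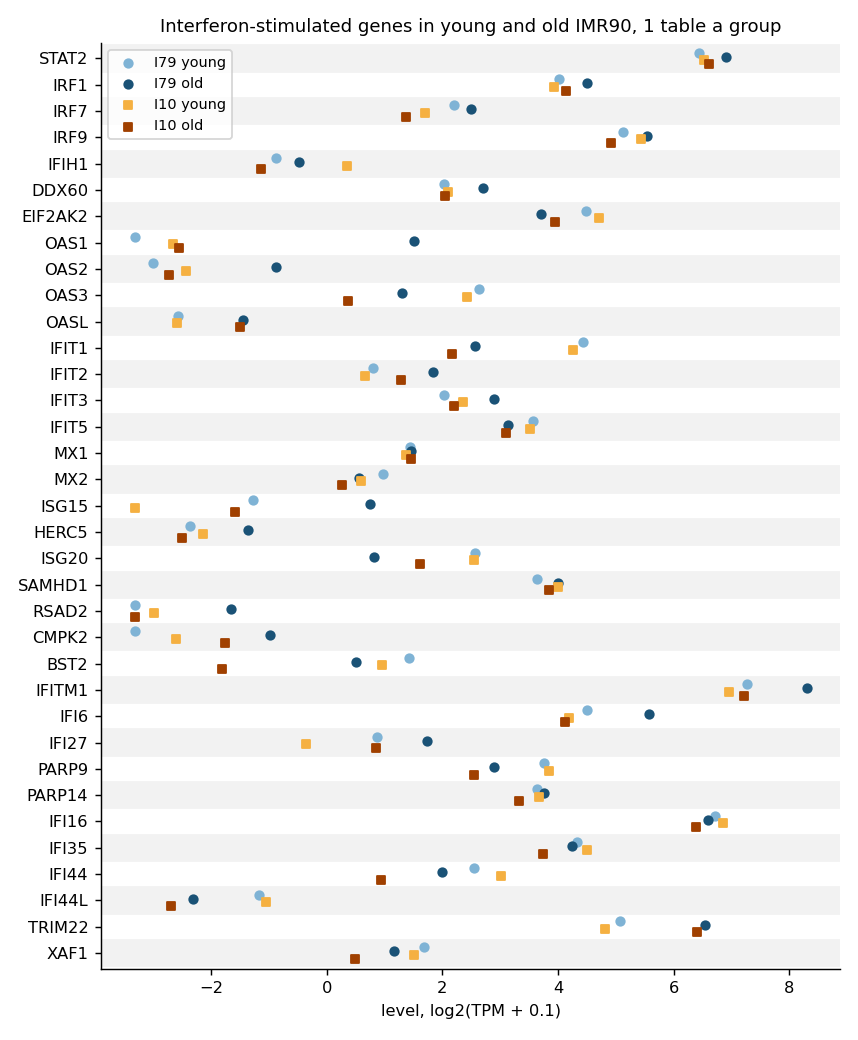
Level of each of the 35 genes in the 4 young and old tables, as log2 of TPM + 0.1 on the horizontal axis, with 1 point per table and genes ordered by role. IFITM1 has the highest level of the 35 in each table, IFIT1 lies lower and TRIM22 higher in old than in young cells of both isolates, and OAS1, RSAD2 and CMPK2 sit at the left edge in I79 young, where they were listed at 0.

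Which of these genes differ between old and young cells was asked in 1 fit over both isolates, with isolate as a term, by edgeR's quasi-likelihood test adjusted over all 15135 genes tested. With 4 tables this fit has 1 residual degree of freedom, so its precision rests on sharing the spread between genes. Of the 35 genes, 27 had enough reads to be tested; IFIH1, OAS1, OAS2, OASL, ISG15, HERC5, RSAD2 and CMPK2 did not, with at most 25 estimated counts in any table. Calls needed an adjusted p below 0.01 together with a log2 fold change beyond 0.6 in either direction. TRIM22 was the 1 gene called higher and IFIT1 the 1 gene called lower, where 5.65% of all genes tested were called higher and 3.69% lower. The median log2 fold change of the 27 genes was 0.02, beside −0.01 over all genes tested.

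TRIM22 (ENSG00000132274, GRCh37 chr11:5710840-5758319, + strand) codes for a RING-type E3 ubiquitin ligase of the tripartite motif family with antiviral activity. Its level was 33.6 TPM in I79 young and 93.2 TPM in I79 old, and 28.0 TPM in I10 young and 84.4 TPM in I10 old. Old cells were above young cells by nearly the same log2 ratio of CPM in both isolates, 1.68 in I79 (95% counting interval 1.55 to 1.82) and 1.74 in I10 (1.61 to 1.87). The fitted log2 fold change was 1.71 (SE 0.10, edgeR adjusted p = 0.0036). Transcript TRIM22-201 carried between 76.6% and 82.2% of the estimated counts of the gene in each table. On the annotation TRIM22 overlaps TRIM5 on the opposite strand and the olfactory receptor genes OR52P1 and OR56B1 on its own, and whether counting used strand is not stated in the sources used here.

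IFIT1 (ENSG00000185745, GRCh37 chr10:91152303-91166244, + strand) codes for a protein with tetratricopeptide repeats that binds RNA lacking the host cap methylation and blocks its translation. It moved the other way: 21.5 TPM in I79 young against 5.79 TPM in I79 old, and 19.1 TPM in I10 young against 4.41 TPM in I10 old. The log2 ratio of CPM was −1.74 in I79 (95% counting interval −2.05 to −1.44) and −1.86 in I10 (−2.20 to −1.53), with a fitted log2 fold change of −1.80 (SE 0.16, edgeR adjusted p = 0.0049). IFIT1-201 carried almost all of its estimated counts in every table. IFIT1 overlaps LIPA on the opposite strand, as do IFIT2 and IFIT3. In these bulk samples fewer cells that express a gene and less RNA per cell cannot be told apart.

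The 4 IFIT genes lie side by side on chromosome 10 and code for related RNA-binding proteins that act in complexes, yet their values in old cells pointed in different directions. IFIT2, at 1.64 TPM in I79 young and 3.46 in I79 old, and at 1.48 TPM in I10 young and 2.33 in I10 old, had a log2 fold change of 1.02 (SE 0.24, edgeR adjusted p = 0.036), which missed the threshold. IFIT3 had 89 estimated counts in I79 young and 210 in I79 old, but 133 in both I10 young and I10 old, so that its log2 ratio was 1.00 (95% counting interval 0.64 to 1.38) in I79 and 0.08 (−0.27 to 0.44) in I10. IFIT5, at 11.8 and 8.73 TPM in I79 and 11.3 and 8.46 TPM in I10, had a log2 fold change of −0.24 (edgeR adjusted p = 0.204). In both isolates old cells lay below young cells for IFIT1 and above them for IFIT2. On the TPM scale IFIT3 was higher in old cells of I79 and lower in old cells of I10 (4.00 and 7.36 TPM in I79, 5.01 and 4.51 TPM in I10).

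IFIT3 was also 1 of 3 genes, among 18 with at least 50 estimated counts in each table, whose leading transcript was not the same in the 4 tables; the others were SAMHD1 and PARP9. Only 2 of the 15 annotated IFIT3 transcripts were listed. On the annotation they start 4487 bases apart on GRCh37, IFIT3-202 at position 91087754 of chromosome 10 and IFIT3-201 at position 91092241. IFIT3-202 was 2496 bases long in the young and old tables and 2390 on the annotation, so its start there may differ from the annotated one. In young and old cells IFIT3-202 held 89.0 and 51.7 estimated counts in I79, and 103.3 and 60.0 in I10. IFIT3-201 held 0 and 158.4 estimated counts in I79, and 29.7 and 72.6 in I10. The share of the downstream transcript IFIT3-201 was thus 0% in I79 young and 22.35% in I10 young, and 75.41% in I79 old and 54.75% in I10 old: higher in old than in young cells in both isolates, with no test because each group is 1 table. These counts are model estimates of how reads shared by both transcripts divide.

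**Figure D2:**
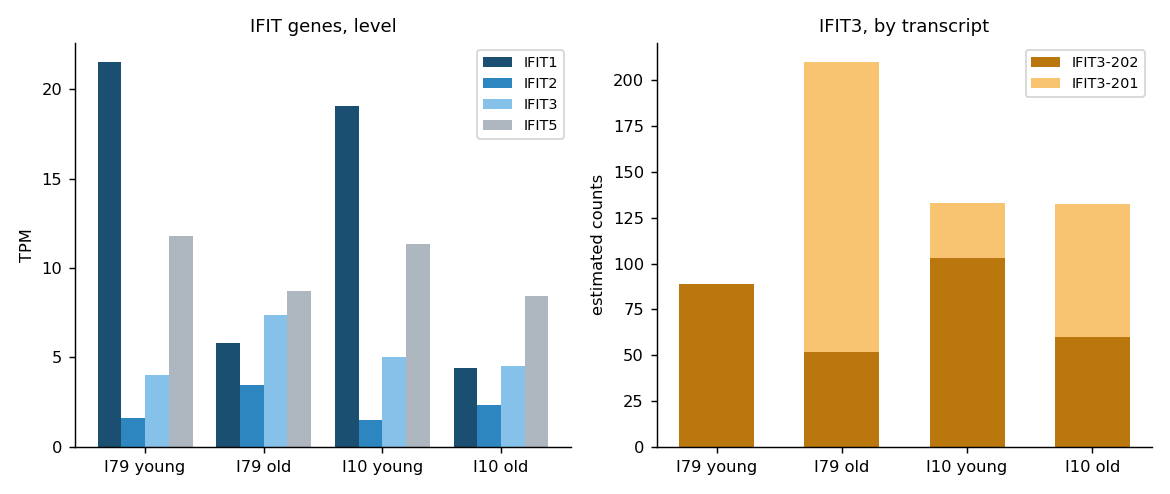
Left, level in TPM of the 4 IFIT genes in each young and old table, 1 bar per gene and table; right, estimated counts of IFIT3 in the same tables, divided between transcripts IFIT3-202 and IFIT3-201, with no error bars because each group is 1 table. IFIT1 is the highest of the 4 in both young tables and below IFIT5 in both old tables, and IFIT3-201 holds 0 counts in I79 young and 158.4 in I79 old.

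The sequence before the start of IFIT1 and before 2 starts of IFIT3 is shown because IFIT1 was called and because the estimated transcripts of IFIT3 divide between distant starts. Each run is the 170 bases before a RefSeq transcription start on GRCh38.p14, + strand, 5′ to 3′: chr10:89392453-89392622 for IFIT1, chr10:89327827-89327996 for the upstream start of IFIT3, whose first transcribed base is also that of IFIT3-202, and chr10:89332359-89332528 for a downstream start of IFIT3. No annotated transcript has its first base at that downstream start, so the last stretch does not end where IFIT3-201 begins. By the annotated distance of 4487 bases between the starts, IFIT3-201 begins inside that stretch. Capitals mark matches to the core of an interferon response element, GAAA, any 2 bases, GAAA, searched on both strands (TTTC, any 2 bases, TTTC when it lies on the other strand), with no other motif searched.
IFIT1: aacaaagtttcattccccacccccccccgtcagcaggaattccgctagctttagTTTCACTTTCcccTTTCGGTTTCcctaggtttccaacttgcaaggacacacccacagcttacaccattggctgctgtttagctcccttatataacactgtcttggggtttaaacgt
IFIT3 upstream start: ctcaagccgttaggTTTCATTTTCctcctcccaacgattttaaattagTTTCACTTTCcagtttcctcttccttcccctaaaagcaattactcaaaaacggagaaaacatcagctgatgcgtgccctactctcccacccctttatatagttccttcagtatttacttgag
IFIT3 downstream start: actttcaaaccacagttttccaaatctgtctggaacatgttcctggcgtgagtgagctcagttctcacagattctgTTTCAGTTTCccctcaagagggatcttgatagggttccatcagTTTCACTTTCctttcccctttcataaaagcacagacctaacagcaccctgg
Each of the 3 stretches holds 2 matches, and the same 10 letters TTTCACTTTC occur once in each. By the annotated distance, IFIT3-201 begins within these letters of the downstream stretch, so that match is not wholly before its start. In the 300-base windows around RefSeq starts (250 bases before, 50 after), 24 of 40 windows of the listed genes (60.0%) held a match, against 1255 of 35116 windows in the whole table (3.57%). By gene, 20 of the 29 genes with a window had at least 1. IFIT2, IRF7, MX2, OAS2, OASL and TRIM22 are not among the 29. The letters describe these windows and not occupancy by any factor.

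Other genes had old values on the same side of young in both isolates without passing the threshold. OAS3, which makes the 2′-5′ oligoadenylates that activate RNase L, was at 6.12 TPM in I79 young and 2.37 in I79 old, and at 5.29 TPM in I10 young and 1.19 in I10 old (log2 fold change −1.45, SE 0.34, edgeR adjusted p = 0.035). IFITM1, at 51.5 and 132 CPM in I79 and 37.9 and 61.1 CPM in I10, had a log2 fold change of 1.03 (SE 0.18, edgeR adjusted p = 0.018). Both genes carry matches of the motif close to their starts, shown here because their old values lay on opposite sides of the young ones (GRCh38.p14, + strand, chr12:112938304-112938473 for OAS3 and chr11:313870-314039 for IFITM1, capitals as before).
OAS3: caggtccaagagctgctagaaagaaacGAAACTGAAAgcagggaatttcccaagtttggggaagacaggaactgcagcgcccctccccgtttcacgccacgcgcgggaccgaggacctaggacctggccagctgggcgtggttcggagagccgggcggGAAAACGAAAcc
IFITM1: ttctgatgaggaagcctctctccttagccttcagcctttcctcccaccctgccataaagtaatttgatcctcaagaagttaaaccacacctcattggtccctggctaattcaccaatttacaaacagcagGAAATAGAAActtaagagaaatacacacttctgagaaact
IFITM1 has a further match that crosses its start and is not in this stretch. The ADP-ribosyltransferase PARP9 was at 13.5 TPM in I79 young and 7.34 in I79 old, and at 14.3 TPM in I10 young and 5.72 in I10 old (log2 fold change −0.92, SE 0.15, edgeR adjusted p = 0.016). For IFITM1, I10 old was above both young tables in CPM, but in TPM it was under I79 young. IFI44L, a gene of little known function that is a common marker of an interferon response, had 18 estimated counts in I79 young and 7 in I79 old, and 24 in I10 young and 4 in I10 old (log2 fold change −1.99, SE 0.54, edgeR adjusted p = 0.049). The tether BST2, which holds budding virus at the cell surface, had 21 and 14 estimated counts in I79 and 18 and 2 in I10 (log2 fold change −1.58, SE 0.67, edgeR adjusted p = 0.138). The exonuclease ISG20 was at 5.81 and 1.67 TPM in I79 and 5.74 and 2.98 TPM in I10 (log2 fold change −1.28, SE 0.38, edgeR adjusted p = 0.062). In all, 8 of the 27 genes had an adjusted p under 0.05, where 31.8% of all genes tested did, and the 25 uncalled genes ran from −1.99 to 1.03. Those with little distance between old and young included both MX GTPases, dynamin-like proteins that block virus nucleocapsids, at log2 fold changes of 0.02 (MX1) and 0.03 (MX2) with SE 0.34 and 0.33, both below 0 (−0.19) when scaled by plain library totals.

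Taken isolate by isolate, with 2 counts added in each group before the log2 ratio so that low genes stay near 0, the genes differed in how far old lay from young. In I79, 7 of 27 genes were higher in old cells by more than 0.6 (DDX60, IFIT2, IFIT3, IFITM1, IFI6, IFI27 and TRIM22, 25.93%) and 6 were lower (OAS3, IFIT1, ISG20, BST2, PARP9 and IFI44L, 22.22%), where 21.6% of all genes were higher and 19.6% lower. In I10, 3 were higher (IFIT2, IFITM1 and TRIM22, 11.11%) and 8 lower (IRF7, OAS3, IFIT1, ISG20, BST2, PARP9, IFI44 and IFI44L, 29.63%), where 18.6% of all genes were higher and 18.8% lower. Past 0.6 in both isolates were the 3 higher genes of I10 (11.11%, against 14.1% of all genes) and the 6 lower genes of I79 (22.22%, against 13.1%). None was past 0.6 in opposite directions, as 1.06% of all genes were. The median log2 ratio of the 27 genes was 0.22 in I79 and −0.24 in I10.

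The log2 ratio of old to young was higher in I79 than in I10 for 23 of the 27 genes (85.19%), against 50.9% of all genes tested; IFIT5, MX2, ISG20 and TRIM22 were the exceptions. The gap was large for IFI44, a cytoplasmic protein of the same family as IFI44L, which had 44 estimated counts in I79 young and 59 in I79 old but 100 in I10 young and 27 in I10 old. Its log2 ratio, with no counts added here or for the genes below, was 0.18 in I79 (95% counting interval −0.40 to 0.78) and −1.80 in I10 (−2.48 to −1.18). IFI6, which delays apoptosis, had 145 and 397 estimated counts in I79, but 140 and 149 in I10, for ratios of 1.21 (0.94 to 1.5) and 0.17 (−0.17 to 0.52). The counting intervals of the isolates do not overlap for either gene. IRF9, the DNA-binding part of the STAT complex, had 373 and 640 estimated counts in I79 and 472 and 378 in I10, with ratios of 0.54 (0.35 to 0.73) and −0.24 (−0.44 to −0.04). DDX60, a helicase that assists RNA sensing, had 175 and 427 in I79 and 262 and 302 in I10, with ratios of 1.05 and 0.29. IFI27, a mitochondrial protein, had 5 and 20 in I79 and 11 and 9 in I10, and IRF7 had 63 and 87 in I79 and 59 and 34 in I10. The intervals cover counting error alone, and with 1 table for each group the difference between isolates has no replicate check.

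**Figure D3:**
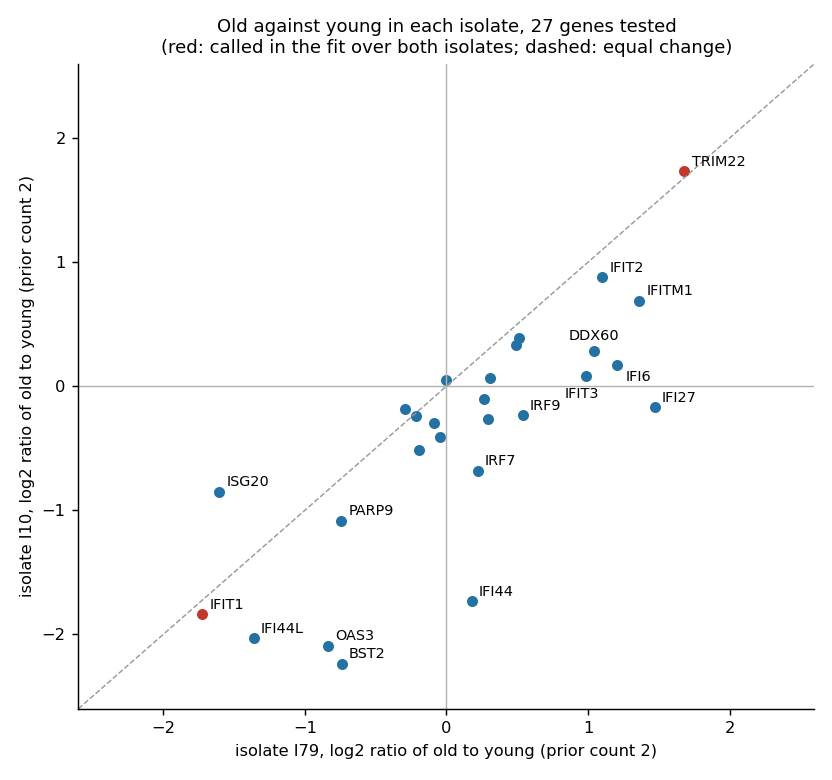
Log2 ratio of old to young cells in isolate I79 (horizontal axis) and isolate I10 (vertical axis) for the 27 genes tested, with 2 counts added; 1 point per gene, red for the 2 genes called in the fit over both isolates, and a dashed line where both ratios are equal. TRIM22 and IFIT1 lie close to the dashed line, and 23 of the 27 genes lie below it.

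Between the isolates the young tables were close. Against I79 young, I10 young was higher by more than 0.6 for 2 genes (IFI27 and IFI44, 7.41%, against 4.8% of all genes) and lower for 0 (against 3.27%), with a median of 0.00. The old tables were further apart: I10 old was lower than I79 old by more than 0.6 for 10 genes (IRF7, IRF9, OAS3, IFIT3, MX1, BST2, IFITM1, IFI6, IFI27 and IFI44, 37.04%, against 9.07% of all genes) and higher for ISG20 (3.7%, against 7.97%), with a median of −0.45 beside 0.00 over all genes. The I79 and I10 old tables also enter the ratios of old to young above. The 8 genes too low to be tested are given as estimated counts in young and old cells, not corrected for depth. OAS1, another oligoadenylate synthetase, had 0 estimated counts in I79 young and 25 in I79 old, and 1 and 2 in I10. OAS2 had 1 and 10 in I79 and 3 and 3 in I10, and RSAD2 had 0 and 9 in I79 and 1 and 0 in I10. HERC5, the ligase that attaches ISG15 to other proteins, had 3 and 12 in I79 and 3 and 2 in I10. ISG15 had 2 and 11 in I79 and 0 and 2 in I10, OASL had 2 and 5 against 1 and 3, and CMPK2 had 0 and 3 against 2 and 1. IFIH1 had 6 and 7 in I79 and 14 and 4 in I10. At these counts no fold change is given.

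HMGB2 KD cells were compared with WT cells to ask whether these genes differ between them. The labels do not give the passage of either group. Whether WT cells were given a control siRNA is not stated in the sources used here. Loss of HMGB2 and transfection of siRNA therefore cannot be told apart. Of the 35 genes, 30 had enough counts for edgeR's quasi-likelihood test over all 15338 genes; IRF9, OAS1, OAS2, CMPK2 and IFI27 did not, and IRF9 was listed at 0 in all 4 libraries. IFIT1 was called lower, against 2.34% of all genes tested, and 0 genes were called higher, against 2.86%. At an unadjusted p under 0.05 there were 7 lower and 2 higher (ISG15 and TRIM22), where 10.9% of all genes were lower and 13% higher, and DESeq2 also called IFIT1 alone. The median log2 fold change of the 30 genes was −0.21, beside 0.00 over all genes tested, and −0.088 without WT replicate 2. Both HMGB2 KD libraries lay below both WT libraries for 15 of the 30 genes (50%, against 26.4% of all genes) and above both for OAS3, ISG15 and TRIM22 (10%, against 27.4%).

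IFIT1 had 235 and 255 counts in the WT libraries and 126 and 96 in the HMGB2 KD libraries, or 6.86 and 6.83 CPM against 3.44 and 2.41 CPM. Both HMGB2 KD libraries lay below both WT libraries, with a log2 fold change of −1.23 (SE 0.25, edgeR adjusted p = 0.0053). Without HMGB2 KD replicate 2 the log2 fold change was −0.99 and IFIT1 was no longer called. IFIT1 was thus the 1 gene of the 35 called in both tests, lower in each; the tests share no libraries but differ in how reads were counted.

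The other IFIT genes had lower values in HMGB2 KD cells that did not pass the threshold. IFIT3 was at 12 and 11.7 CPM in WT, against 7.48 and 8.30 CPM after knockdown (log2 fold change −0.59, SE 0.17, edgeR adjusted p = 0.041). IFIT2 was at 4.12 and 4.34 CPM against 3.00 and 2.43 CPM (−0.64, adjusted p = 0.157), and IFIT5 at 25.9 and 26 CPM against 23.0 and 20.9 CPM (−0.24, adjusted p = 0.313). For all 4 genes of the family the groups did not overlap. IFITM1 had the adjusted p next to that of IFIT1, at 0.0085 by edgeR, but a log2 fold change under the minimum (−0.57, SE 0.12): WT libraries held 90.9 and 87.2 CPM, and HMGB2 KD libraries 61.7 and 58.5 CPM. IFITM1 was therefore lower in HMGB2 KD than in WT libraries while its values were higher in old than in young cells.

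Among genes at few counts, BST2 had 24 and 38 counts in WT and 6 and 14 in HMGB2 KD cells (log2 fold change −1.72, SE 0.63, edgeR adjusted p = 0.101), HERC5 had 24 and 28 against 8 and 22 (−0.90, SE 0.62), and OASL, a relative of the oligoadenylate synthetases that enhances RNA sensing, had 20 and 39 against 24 and 12 (−0.78, SE 0.60). The groups overlapped for OASL and not for BST2 and HERC5. ISG20 was at 4.41 and 3.75 CPM in WT, against 2.27 and 2.68 CPM after knockdown (−0.72, SE 0.27, edgeR adjusted p = 0.118). On the other side, TRIM22 was at 61.3 and 72.3 CPM in WT, against 89.1 and 86.4 CPM after knockdown (0.39, SE 0.13, edgeR adjusted p = 0.069), and ISG15, the ubiquitin-like modifier, at 24.0 and 20.1 CPM against 25.2 and 31.3 CPM (0.36, SE 0.15, edgeR adjusted p = 0.169). MX1 was at 1.43 and 1.26 CPM in WT, and the knockdown libraries, at 2.87 and 0.78 CPM, lay on both sides of WT. Without HMGB2 KD replicate 1 the log2 fold change of MX1 was −0.80. RSAD2 had 0 and 10 counts in WT and 14 and 1 after knockdown, IRF7 had 48 and 24 against 13 and 42, IFI44L had 16 and 23 against 9 and 28, and CMPK2 had 12 and 3 against 6 and 7. OAS1 had 2 and 1 counts against 4 and 0, OAS2 had 3 and 8 against 5 and 7, and IFI27 had 0 and 1 against 0 in both. For each of these genes the groups overlapped. The 29 uncalled genes ran from −1.72 to 0.53, and 17 of the 35 genes had at least 100 counts in every library.

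**Figure D4:**
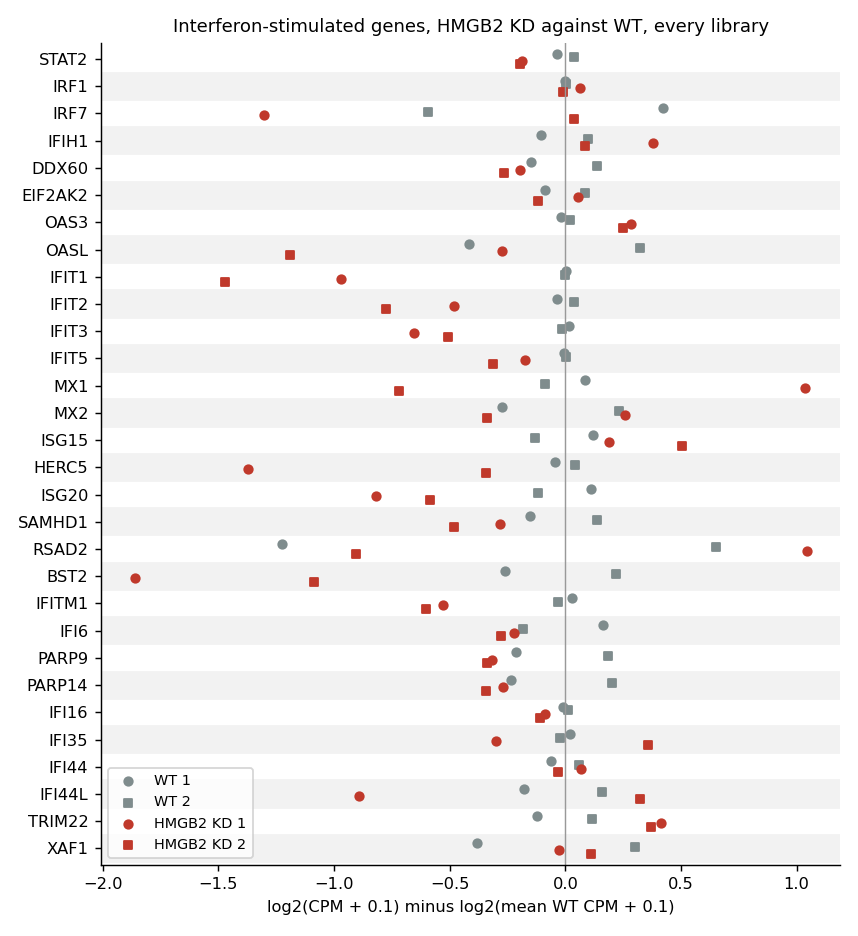
Difference of log2(CPM + 0.1) in each library from that of the mean of the 2 WT libraries, for the 30 genes tested, with 1 point per library and circles and squares for replicates 1 and 2. Both HMGB2 KD points of IFIT1 lie below both WT points, the other IFIT genes lie on the same side, and MX1 has 1 HMGB2 KD point on each side of WT.

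The ICM libraries can be set beside I79 young cells only as values, since reads were counted by transcript region in the former and estimated per transcript in the latter. CPM was recomputed over the genes that all tables share, and WT cells, not given ICM and also counted in another way, were set beside I79 young in the same manner as a reference. Of the 35 genes, 32 had enough reads; OAS1, OAS2 and CMPK2 did not. Against I79 young, the ICM libraries were higher by more than 0.6 on the log2 scale for 10 genes (31.25%, against 30.5% of all shared genes) and lower for 14 (43.75%, against 30.3%). WT was higher than I79 young for 9 (28.12%, against 21.3%) and lower for 12 (37.5%, against 23.8%), IRF9 among them. To the same I79 young table, the median log2 ratio was −0.41 for ICM (all shared genes −0.01) and −0.09 for WT (−0.02). Against I79 old it was −0.50 for ICM, beside 0.12 over all shared genes. The treatment and the way the tables were made cannot be told apart here.

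IFI44L and OASL were the genes for which ICM and WT lay past 0.6 on opposite sides of I79 young. IFI44L was at 8.93 and 7.53 CPM in the ICM libraries (115 and 80 reads), at 1.31 CPM in young and 0.39 CPM in old I79 cells, at 1.44 CPM in young and 0.21 CPM in old I10 cells, and at 0.51 and 0.67 CPM in WT. Its reference was low, with 18 estimated counts in I79 young, and OASL had at most 1 read in an ICM library. IFI6 was at 32.5 and 37.5 CPM in the ICM libraries and at 7.91 to 21.9 CPM in the 8 other tables. ISG15 was at 47.4 and 44 CPM with ICM, but the young and old tables held at most 0.62 CPM of it where WT held 26 and 21.8 CPM, so its ratio to I79 young says little. IRF7, the factor that amplifies interferon production, was at 4.97 and 6.02 CPM with ICM and at no more than 4.81 CPM elsewhere. These 4 genes were those with both ICM libraries above all 8 other tables (12.5%, against 26.5% of shared genes).

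Both ICM libraries lay below all 8 other tables for STAT2, DDX60, OAS3, IFIT5, ISG20, PARP14 and IFI16 (21.88%, against 20.8% of shared genes). OAS3 was at 2.33 and 1.79 CPM with ICM, at 17.7 CPM in young and 8.76 CPM in old I79 cells, at 18.6 CPM in young and 3.56 CPM in old I10 cells, and at 6.37 and 6.53 CPM in WT, for log2 ratios to I79 young of −3.06 with ICM and −1.44 in WT. IFI16, which detects DNA in the nucleus and cytosol, was at 51.6 and 51.5 CPM with ICM and at 80.0 to 192 CPM in the other tables. IFIT1 was at 5.13 and 4.99 CPM with ICM against 25.8 CPM in I79 young and 6.88 in I79 old, but WT, at 7.45 and 7.40 CPM, was nearly as far from I79 young (−2.33 with ICM, −1.79 in WT). IFIH1, the long double-stranded RNA sensor MDA5, was at 4.12 and 3.95 CPM with ICM and at 3.8 and 4.38 CPM in WT, against 0.45 CPM in I79 young. BST2, with 3 and 1 reads in the ICM libraries and 21 estimated counts in I79 young, had a log2 ratio of −2.75 with ICM and −0.69 in WT. The ICM replicates themselves were close: the 19 genes with at least 50 reads in each differed between them by at most 0.47 on the log2 scale. When only reads in coding regions and noncoding transcripts were counted, the median ratio of the 32 genes to I79 young was −0.15, beside −0.13 over all shared genes.

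**Figure D5:**
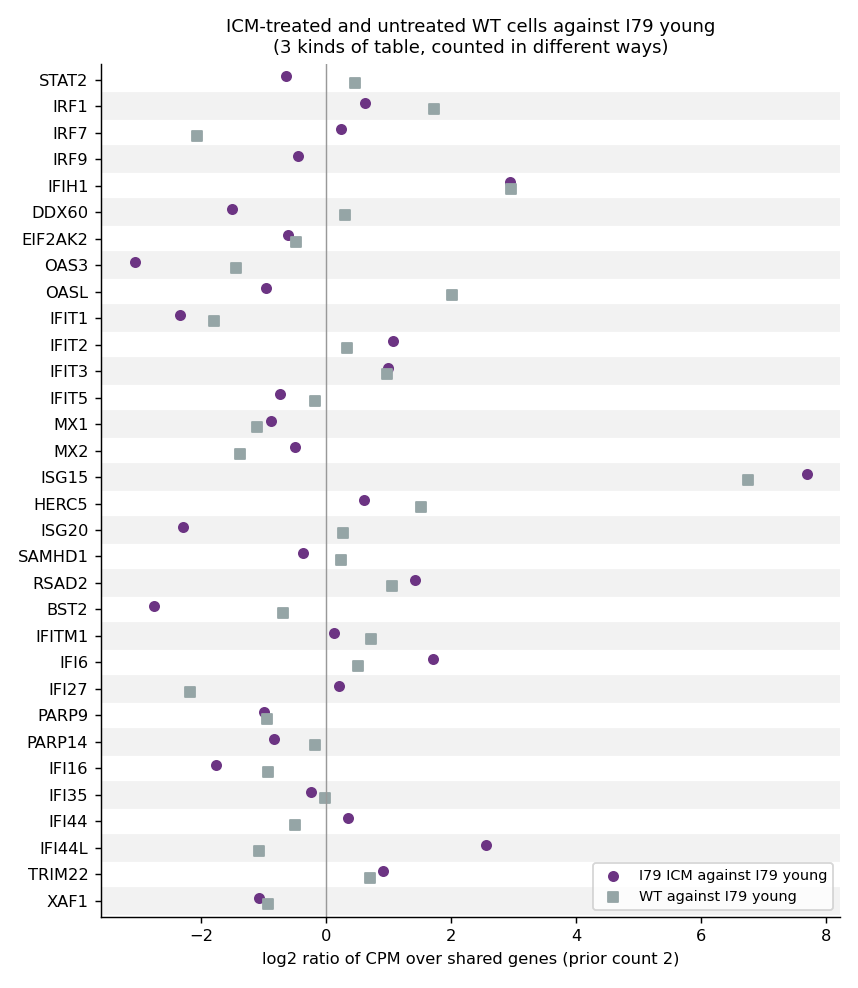
Log2 ratio of CPM over shared genes to the I79 young table for the ICM libraries (mean of 2) and, as a reference counted in another way, for the WT libraries (mean of 2), with 2 counts added; 32 genes, no WT point for IRF9, which was listed at 0 there. For IFIH1, IFIT3, ISG15, OAS3 and IFIT1 both points lie on the same side of 0, while for IFI44L they lie on opposite sides, at 2.57 for ICM and −1.06 for WT.

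IRF9 and ISG15 show how far a level can hang on the table. IRF9 was listed at 0 in the 4 WT and HMGB2 KD libraries and at 19.7 to 35.3 CPM in the 6 others; on the annotation it overlaps ENSG00000259529 on the same strand. ISG15 had 751 to 1247 counts in each WT and HMGB2 KD library and 468 and 610 reads in the ICM libraries, but 0 to 11 estimated counts in the young and old tables. Both are among the 32 genes counted in the ICM comparison, and the cause of the gap between tables was not tested. Of the 35 genes, 14 overlap another protein-coding gene on the annotation and 26 had fewer transcripts listed in the young and old tables than annotated.

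The rest of the interferon pathway was read from a list of ligands, receptors, kinases and factors, sensors, feedback inhibitors and other interferon-stimulated genes. Of 9 interferon ligands, 8 were under 10 counts in every table of both fits; the exception was IFNE. In HMGB2 KD against WT, 55 of 72 listed genes were tested, 3 were called higher and 1 lower (7.27% in all, against 2.86% higher and 2.34% lower over all genes). The 5 receptor genes ran from −0.27 to 0.17, with none called. Both feedback inhibitors called lay on opposite sides: USP18, which removes ISG15 and blocks the receptor, rose from 538 and 671 counts to 986 and 1150 (0.73, SE 0.14, edgeR adjusted p = 0.0045). SOCS3, an inhibitor of JAK kinases, fell from 7290 and 6556 counts to 2838 and 2672 (−1.43, SE 0.14, edgeR adjusted p = 5.6e-05). The guanylate-binding proteins GBP1 (1.06, edgeR adjusted p = 0.0002) and GBP2 (0.80, edgeR adjusted p = 0.0058), GTPases that are strongly induced by interferon gamma, were the others called higher. USP18 was no longer called without WT replicate 1 (0.63) or HMGB2 KD replicate 2 (0.68), and GBP2 not without WT replicate 1 (0.58), HMGB2 KD replicate 1 (0.78) or HMGB2 KD replicate 2 (0.81).

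In old against young cells, 59 of 73 pathway genes were tested, 3 were called higher and 0 lower by edgeR (5.08% in all, against 5.65% higher and 3.69% lower over all genes). At an unadjusted p under 0.05 there were 15 higher and 12 lower, where 22.9% of all genes were higher and 22.4% lower. The 5 receptors ran from 0.32 to 0.63 and the 5 feedback inhibitors from −0.89 to −0.06, with none called. CXCL10, a chemokine that attracts T cells, had 3 estimated counts in I79 young and 351 in I79 old, and 1 in I10 young and 18 in I10 old (log2 fold change 6.13, SE 0.52, edgeR adjusted p = 0.0048). The old table of I79 held more CXCL10 than that of I10. The guanylate-binding protein GBP3 (0.97, edgeR adjusted p = 0.0099) and the nuclear body protein SP100 (0.96, edgeR adjusted p = 0.0074) were the other genes called higher.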

How the data were processed

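RNA-seq of IMR90 cells was read from 10 deposited tables. For WT and HMGB2 KD cells the authors deposited raw read counts per gene symbol; summary rows that name no gene, 16.9% to 18.0% of the reads, were left out. For young and old cells the authors deposited estimated counts and TPM per transcript, which were summed per gene through GENCODE on GRCh37 (97.7% of transcripts matched) and rounded. For ICM cells the deposited read counts are given per transcript region and were summed per gene. The submitters' processing notes name STAR 2.6.0c, featureCounts, DESeq2, deepTools and GRCh37; which of them made which table is not given in the sources used here.

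Genes passing filterByExpr were TMM-normalised and tested with edgeR 4.0.16 (quasi-likelihood, Benjamini-Hochberg over all genes tested), with isolate as a term for old against young. The calling thresholds, 0.01 for the adjusted p and 0.6 for the log2 fold change, are those in the methods of the study, whose results also use 0.05 for the adjusted p. The scripts were tested on simulated data. Ratios within an isolate have 95% Clopper-Pearson intervals, which cover counting error only. For tables counted in different ways, CPM was taken over shared genes with at least 10 reads in 2 tables, a prior count of 2 was added, and nothing was tested. Alternatives were DESeq2 1.42.0, other scalings and filters, 1 RUVs factor (an estimate of unwanted variation, as in the study), a replicate block, length-scaled counts and leaving out each library. Promoter windows came from RefSeq (GRCh38.p14), matched by symbol.

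The genes and lists were chosen with earlier results of these data known. Values in every library are given for genes called in either test, for the 5 with the largest log2 change in each comparison and for genes under 10 counts in a young, old, WT or HMGB2 KD group. Other genes named were chosen after their values were seen. Replicate libraries differed from each other by more than sampling noise. Some items are not reported here.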

Additional observations from a re-analysis of the deposited data

Results flagged for a closer look

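For 7 genes the old and young tables of the isolates lay in opposite directions: I79 old was on one side of I79 young and I10 old on the other side of I10 young. The difference between the isolates was not tested, since each group is 1 table. With 2 counts added, the log2 change in I79 minus that in I10 was 1.91 for IFI44, 1.64 for IFI27, 0.90 for IRF7, 0.77 for IRF9, 0.56 for MX1, 0.37 for PARP14 and −0.050 for MX2. IFI27 rests on 5 to 20 estimated counts per table. For MX2 the changes in both isolates were within 0.05 of 0, and its counting intervals span 0 in both. None of the 7 was past 0.6 in opposite directions.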

How the results depend on the processing

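Fold changes were recomputed under each alternative for the genes whose fitted values are named. Reversals were MX1 and MX2 in old against young with plain library totals (−0.19 for both), MX2 with length-scaled counts (−0.19), and MX1 in HMGB2 KD against WT, which ran from −0.80 to 1.10 when 1 library was left out. CXCL10 and GBP3 were not called without the isolate term, and USP18 and GBP2 not without single libraries. In HMGB2 KD against WT the count of called genes, 1 as reported, was 2 with plain library totals (IFITM1 joined at −0.63) and 2 with 1 RUVs factor (IFIT3 joined at −0.61). Leaving out 1 library gave 0 to 1, with 0 without HMGB2 KD replicate 2. The median of the genes, −0.21 as reported, was −0.28 with plain totals, −0.22 with no filter, −0.22 with 1 RUVs factor and −0.23 with the replicate block, and leaving out 1 library gave −0.29 to −0.088. WT and HMGB2 KD share replicate numbers. Same-numbered libraries correlated in their deviations at 0.18 over 2 pairs, and nothing in the labels says that a number marks a shared culture or day; the replicate block kept 1 gene called, IFIT1, and raised the calls over all genes from 797 to 1243 (312 to 999 when 1 library was left out). In old against young, 2 genes were called as reported, 7 at an adjusted p under 0.05, 4 with plain totals (OAS3 and PARP9 joined), 9 with no filter on low counts and 4 by DESeq2 (OAS3 and IFITM1 joined). Calls over all genes went from 1414 to 3148 with plain totals, 4250 with no filter and 2167 by DESeq2. Plain totals moved the median of the genes to −0.19 and that of all genes to −0.22. In ICM against I79 young the median, −0.41 as reported, was −0.15 over coding and noncoding region reads alone (all shared genes −0.13), and leaving out 1 library gave −0.43 to −0.34.

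With 1 residual degree of freedom in old against young, an uncalled gene is not shown to be unaltered. Genes under 10 counts were not testable at this depth. ICM and WT values against I79 young carry the counting method with them.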
